A study of Mus musculus with 3 samples.

Results

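The unfolded protein response and the integrated stress response were followed through 36 genes, listed by mouse symbol and looked up by Ensembl identifier in a table of raw RNA sequencing counts. All 36 were among the 19723 genes of that table, and all 36 passed a filter of at least 1 CPM (counts per 1000000 of the scaled library size) in at least 1 library, as 13019 genes did. MDSCs (myeloid-derived suppressor cells, a tumour-expanded population of neutrophil-like and monocyte-like cells that dampens T cell responses) were sorted from tumours of mice treated with alisertib, an inhibitor of the mitotic kinase Aurora A, and from tumours of control mice, which the labels call both untreated and control treated. Neutrophils were sorted from the marrow of wild-type BALB/c mice. All mice were female BALB/c aged 6 to 8 weeks, and the 3 libraries were pools of 20 tumours, 20 tumours and 5 mice, 1 library for each group. The sort purity was stated as above 90%, without the surface markers used, and the tumour model and the dose were not given in the sources used here.

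The endoplasmic reticulum (ER) folds secreted and membrane proteins, and 3 sensors in its membrane respond when unfolded proteins build up. PERK phosphorylates the initiation factor eIF2alpha, which slows protein synthesis in general but favours translation of the transcription factor ATF4. GCN2 does the same when amino acids are scarce, so ATF4 is shared by ER stress and nutrient stress, the integrated stress response. IRE1 splices the mRNA of XBP1 and ATF6 is cleaved to a free transcription factor, and both raise chaperones, disulfide isomerases and the machinery that degrades misfolded proteins. In myeloid cells these pathways have been tied to secretion, survival and suppressive function. Of the 36 genes, 15 were placed in the ATF4 arm (sensor kinases of eIF2alpha, ATF4 and its targets) and 21 in the XBP1 and ATF6 chaperone arm. Gene counts measure mRNA, so neither eIF2alpha phosphorylation nor the spliced share of Xbp1 mRNA was measured.

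Each arm is known for a short DNA element in the promoters of its targets, and promoters that hold one are shown here. The arms were set by gene lists and not by these elements, which many members of each arm lack in the window searched. The ER stress element (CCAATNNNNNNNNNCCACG, either strand) is bound by NF-Y with ATF6 or XBP1, and an ATF4-type element (TGATGNAA, either strand) is read by ATF4 with a C/EBP partner. RefSeq promoters of GRCm38.p6, from 250 bases before to 50 bases after the annotated start, were matched for 32 of the 36 genes, which left out Atf6, Hyou1, Manf and Ppp1r15b. The ER stress element was in 8 of 18 matched chaperone-arm genes (Hspa5, Hsp90b1, Pdia6, Canx, Calr, Creld2, Dnajc3 and Syvn1) and in 0 of 14 ATF4-arm genes, against 0.137% of all 27025 genes with a promoter in the table (0.119% of its 32851 promoters). The ATF4-type element was in 3 of 14 ATF4-arm genes (Chac1, Trib3 and Asns) and in 1 of 18 chaperone-arm genes (Herpud1), against 4.51% of all genes (3.97% of promoters). The lines below give the 250 bases before the start of the gene, or for Trib3 the 30 bases around the element, 5′ to 3′ on the strand of the gene, with the element in capitals. In Chac1, Trib3 and Calr the capitals are the reverse complement of the letters above.
Chac1 (chr2:119350992-119351241, plus strand): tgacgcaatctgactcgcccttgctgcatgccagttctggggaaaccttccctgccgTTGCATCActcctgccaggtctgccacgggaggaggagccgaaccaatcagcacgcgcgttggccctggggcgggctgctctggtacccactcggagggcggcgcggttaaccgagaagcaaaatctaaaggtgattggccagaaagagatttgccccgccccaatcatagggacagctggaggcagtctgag
Trib3 (chr2:152344028-152344057, minus strand): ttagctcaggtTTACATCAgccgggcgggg
Hspa5 (chr2:34771840-34772089, plus strand): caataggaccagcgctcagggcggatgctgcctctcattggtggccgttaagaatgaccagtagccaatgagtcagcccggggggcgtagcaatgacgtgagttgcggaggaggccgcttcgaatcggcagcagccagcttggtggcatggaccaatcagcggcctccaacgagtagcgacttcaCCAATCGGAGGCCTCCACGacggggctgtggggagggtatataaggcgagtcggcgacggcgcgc
Pdia6 (chr12:17266339-17266588, plus strand): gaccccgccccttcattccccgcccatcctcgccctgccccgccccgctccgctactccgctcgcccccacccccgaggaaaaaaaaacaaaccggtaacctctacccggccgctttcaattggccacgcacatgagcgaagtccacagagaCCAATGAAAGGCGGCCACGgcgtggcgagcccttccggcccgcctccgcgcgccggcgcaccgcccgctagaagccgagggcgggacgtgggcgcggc
Canx (chr11:50325674-50325923, minus strand): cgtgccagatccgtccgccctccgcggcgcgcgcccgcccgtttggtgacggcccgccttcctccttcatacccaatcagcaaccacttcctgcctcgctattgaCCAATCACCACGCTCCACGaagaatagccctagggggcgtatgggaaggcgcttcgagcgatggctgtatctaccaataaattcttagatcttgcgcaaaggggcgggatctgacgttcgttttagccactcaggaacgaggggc
Calr (chr8:84846932-84847181, minus strand): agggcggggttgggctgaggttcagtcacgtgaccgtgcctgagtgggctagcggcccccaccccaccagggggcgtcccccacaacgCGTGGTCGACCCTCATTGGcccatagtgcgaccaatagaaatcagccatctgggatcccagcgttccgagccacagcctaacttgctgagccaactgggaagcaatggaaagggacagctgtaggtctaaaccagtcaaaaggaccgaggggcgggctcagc
The element lay 193 to 186 bases before the start in Chac1, 15 to 22 bases after it in Trib3, 65 to 47 bases before it in Hspa5, and 98 to 80 bases before it in Pdia6. A match is a description of the letters, not a measured binding site.

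The libraries held 19373087 counts (alisertib), 21959748 (control) and 21987097 (bone marrow). With 1 library per group there was no replicate, so no p-value was computed and every difference is between these libraries. A gene was called higher or lower where the 95% exact (Clopper-Pearson) interval of its count ratio, scaled by TMM library sizes, lay at least 2-fold from 1. Folds and log2 ratios have 0.5 added to each count. Intervals cover counting error only, and because reads had no molecular identifiers they are not counts of independent molecules. Strand and counting tool were not given in the sources used here, so overlapping genes and close copies can share reads. Several members are touched by this. Among them, Ddit3 overlaps Mars (715 counts with alisertib, 486 in control and 378 in bone marrow) and Manf overlaps Dcaf1 and Rbm15b. Atf5 overlaps Nup62 (697, 630 and 493 counts in that order). Sesn2 overlaps Gm12981 (66, 146 and 21 counts) and Syvn1 overlaps Mrpl49 (101, 75 and 225 counts).

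Tumour MDSCs differed from bone marrow neutrophils in both arms, and the largest ratios were those of Ppp1r15a and Chac1 of the ATF4 arm. Alisertib MDSCs had 17 of the 36 genes called higher than bone marrow and 1 lower (47.2% and 2.78% of members), where 18.7% of all genes were called higher and 22.3% lower. Control MDSCs had 13 called higher and 2 lower (36.1% and 5.56% of members), where 18.3% of all genes were called higher and 22.9% lower. Among genes with at least 100 CPM in a library, nearer to the level of many members, 26.4% were called higher in alisertib MDSCs than in bone marrow and 30.5% in control MDSCs. Between alisertib and control MDSCs, 1 member was called higher (Phgdh) and 1 lower (Xbp1), where 1.8% of all genes were called higher and 1.18% lower. With 36 members, counts of 1 are near what these shares give, so they are read as results on those genes and not on the pathway. The 2 comparisons with bone marrow share the bone marrow library, and each tumour library enters a pair of the comparisons.

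**Figure D1:**
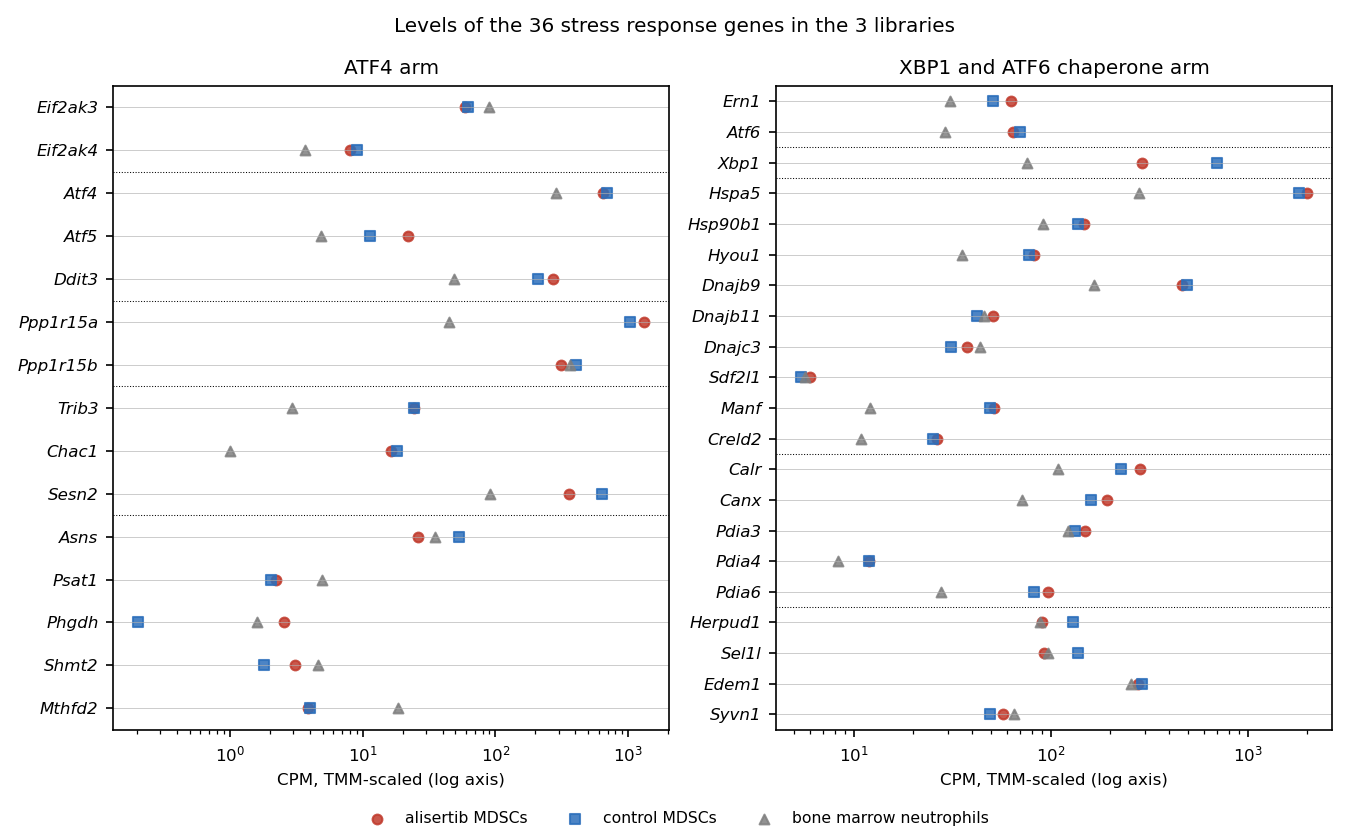
Level of each of the 36 genes in CPM (TMM-scaled, log axis) in the alisertib MDSC, control MDSC and bone marrow neutrophil libraries, 1 point per library, with dotted lines between roles. Ppp1r15a stood at 1315, 1039 and 44.6 CPM and Hspa5 at 1992, 1820.4 and 281 CPM, while the amino acid and one-carbon enzymes lay at the low end.

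The sensor kinases of the ATF4 arm were not among the genes called in any comparison, except Eif2ak4, which was called higher than bone marrow in control with DESeq2 size factors and in both tumour libraries at a 1.5-fold bound. Eif2ak3, which encodes PERK, had 1227 counts in alisertib MDSCs, 1221 in control MDSCs and 2070 in bone marrow neutrophils, or 59.1, 62.5 and 89.7 CPM, so both tumour libraries lay below bone marrow. Eif2ak4, which encodes GCN2, had 167, 178 and 85 counts in the same order, and its ratio to bone marrow was 2.18 (1.67 to 2.87) with alisertib and 2.47 (1.90 to 3.24) in control. The kinase that reads ER stress and the kinase that reads amino acid shortage thus had log2 ratios to bone marrow of opposite sign, -0.60 and 1.12 with alisertib and -0.52 and 1.30 in control.

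Atf4 itself (ENSMUSG00000042406, chromosome 15, 80255184 to 80257541, plus strand of GRCm38) was among the most abundant members per unit length in every library. It had 13320 counts in alisertib MDSCs, 13515 in control MDSCs and 6615 in bone marrow neutrophils, and the authors' FPKM values were 361, 391 and 165. Both tumour libraries were called higher than bone marrow, 2.24-fold (2.17 to 2.31) with alisertib and 2.41-fold (2.34 to 2.49) in control. The alisertib to control ratio was 0.927 (0.905 to 0.95). ATF4 protein is set mainly by translation, which mRNA counts do not show.

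Ddit3 encodes CHOP, the transcription factor linked to cell death under prolonged ER stress (ENSMUSG00000025408, chromosome 10, 127290774 to 127296288, plus strand). It had 5599 counts in alisertib MDSCs, 4067 in control MDSCs and 1121 in bone marrow neutrophils, or 269.7, 208 and 48.6 CPM. The tumour libraries were called higher than bone marrow, 5.55-fold (5.20 to 5.92) with alisertib and 4.28-fold (4.01 to 4.58) in control. The alisertib to control ratio was 1.30 (1.24 to 1.35), under the 2-fold bound. Atf5, a relative of ATF4 that is translated in a similar way, had 457 counts in alisertib MDSCs, 223 in control MDSCs and 113 in bone marrow neutrophils. It was called higher with alisertib than in bone marrow, 4.48-fold (3.65 to 5.57), but not in control against bone marrow (2.33, 1.85 to 2.95), and alisertib over control was 1.93 (1.64 to 2.27).

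Ppp1r15a showed the largest ratio to bone marrow of all 36 genes. It encodes GADD34, the stress-induced subunit that brings protein phosphatase 1 to eIF2alpha and so restores protein synthesis (ENSMUSG00000040435, chromosome 7, 45522916 to 45526268, minus strand). Counts were 27295 in alisertib MDSCs, 20302 in control MDSCs and 1028 in bone marrow neutrophils. The ratio to bone marrow was 29.5 (27.7 to 31.4) with alisertib and 23.3 (21.9 to 24.9) in control, both called. Alisertib over control was 1.27 (1.24 to 1.29), not called. Its constitutive counterpart Ppp1r15b, which encodes CReP, stayed close together in the 3 libraries, at 6471, 7847 and 8476 counts, with ratios to bone marrow of 0.849 and 1.09 in the alisertib and control libraries. For each 100 Ppp1r15b counts there were 422 Ppp1r15a counts (411 to 433) with alisertib, 259 (252 to 266) in control and 12.1 (11.4 to 12.9) in bone marrow. This within-library ratio does not depend on library scaling. It and the other within-library ratios were chosen after values were seen and carry no test.

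The 3 effectors downstream of ATF4 and CHOP were called higher in both tumour libraries than in bone marrow, with a median log2 ratio of 3.03 with alisertib and 3.03 in control. Chac1, an enzyme that degrades glutathione, had 342 counts in alisertib MDSCs, 357 in control MDSCs and 23 in bone marrow neutrophils. That made it 16.2-fold (10.8 to 26.4) and 18-fold (12 to 29.3) higher than bone marrow. Trib3, a pseudokinase that binds AKT and ATF4, had 502, 474 and 68 counts in the same order of libraries, 8.15-fold (6.36 to 10.7) and 8.18-fold (6.37 to 10.8) above bone marrow. Their promoters are among those printed above, chosen by these calls. Asns and Herpud1 also hold the ATF4-type element and were called in no comparison at the 2-fold bound. Sesn2, sestrin 2, restrains the growth kinase mTORC1 when leucine is scarce. It had 7393 counts in alisertib MDSCs, 12363 in control MDSCs and 2108 in bone marrow neutrophils, and was called higher than bone marrow at 3.90-fold (3.71 to 4.09) and 6.92-fold (6.61 to 7.26). Alisertib over control was 0.563 (0.547 to 0.579) for Sesn2, against 0.901 for Chac1 and 0.997 for Trib3, none of them called.

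The 5 biosynthetic enzymes among the members were mixed. Their median log2 ratio to bone marrow was -0.58 with alisertib and -1.36 in control, and 0 of 5 were called higher in either. Mthfd2, a mitochondrial enzyme of folate metabolism, had 80 counts in alisertib MDSCs, 78 in control MDSCs and 427 in bone marrow neutrophils, and was called lower in both, 4.78-fold with alisertib and 4.61-fold in control. Psat1 and Shmt2, of serine synthesis and its use for folate, had 46, 40 and 114 counts and 64, 35 and 107 counts with alisertib, in control and in bone marrow. Neither was called. Asns, asparagine synthetase, had 544 counts in alisertib MDSCs, 1040 in control MDSCs and 806 in bone marrow neutrophils, so bone marrow lay between the tumour libraries. Its alisertib to control ratio of 0.492 (0.443 to 0.546) fell just short of a call.

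Phgdh, which encodes the enzyme that starts serine synthesis (ENSMUSG00000053398, chromosome 3, 98313170 to 98339990, minus strand), was the member called higher with alisertib than in control. It had 53 counts in alisertib MDSCs, 4 in control MDSCs and 37 in bone marrow neutrophils, or 2.55, 0.205 and 1.60 CPM. The ratio was 11.2 with an interval of 4.59 to 47.4, and control was called lower than bone marrow, 7.06-fold. The control library was thus the low one, at a level where a filter of 10 CPM leaves the gene out. Lymphocyte markers moved in the same direction between the tumour libraries: with alisertib, calls on the higher side were made for 5 of 9 B and plasma cell markers past the filter and for 4 of 6 markers of T and NK cells. Their summed levels were 62.1 CPM with alisertib and 40.8 in control for the B and plasma cell list, and 34.3 and 13.6 CPM for the T and NK cell list. Sdc1 and Cd3d hold most of these sums in control and a smaller part with alisertib. Each was the 1 marker of its list past the filter that was lower with alisertib. Left out after their values were seen, these 2 genes leave sums of 40.7 and 5.53 CPM, and 28.1 and 4.86 CPM, in the same order. Among the B and plasma cell markers Mzb1 was at 0 in control, and among the T and NK cell markers Klrb1c was at 0 in both tumour libraries and Ncr1 in the alisertib library. The part of lymphocytes in the Phgdh ratio was not tested. In bulk libraries a smaller number of cells of a type and less RNA per cell cannot be told apart.

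**Figure D2:**
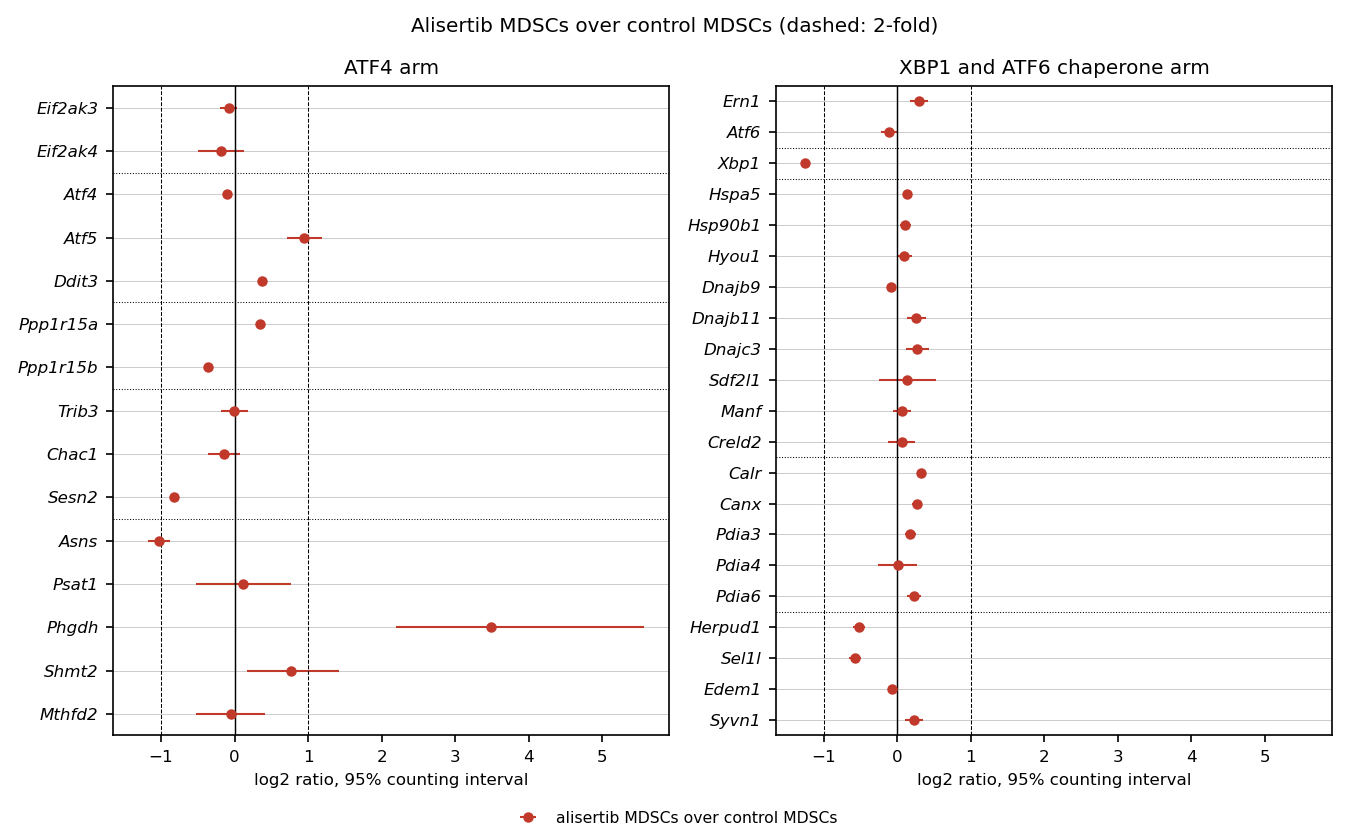
log2 ratio of alisertib MDSCs over control MDSCs for each gene, with its 95% exact counting interval, a solid line at equality and dashed lines at 2-fold. Xbp1 lay wholly beyond the line on the lower side (log2 ratio -1.26) and Phgdh on the higher side (3.48, with a wide interval), while most chaperones sat slightly above 0.

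Xbp1 was the member called lower with alisertib than in control. It encodes the transcription factor that IRE1 activates by splicing (ENSMUSG00000020484, chromosome 11, 5520659 to 5525893, plus strand). It had 6025 counts in alisertib MDSCs, 13607 in control MDSCs and 1756 in bone marrow neutrophils, or 290.3, 697 and 76.1 CPM. Control was the highest library, bone marrow the lowest, and alisertib lay between them. The alisertib library was 2.40-fold lower than control (2.33 to 2.48), at a log2 ratio of -1.26. With total counts in place of TMM library sizes, which raise every ratio of alisertib over control by 0.27 on the log2 scale, the log2 ratio of Xbp1 was -0.99 and it was not called. Both tumour libraries were called higher than bone marrow, 3.81-fold (3.62 to 4.02) with alisertib and 9.15-fold (8.71 to 9.62) in control. Xbp1 is also high in plasma cells, whose markers are among those given beside Phgdh: Sdc1 stood at 21.4 CPM with alisertib, 35.3 in control and 1.82 in bone marrow, while Jchain stood at 0.289, 0.102 and 7.41 CPM. Sdc1 was the exception among the 9 markers of that list past the filter. The other 8 were higher with alisertib than in control and lower in both tumour libraries than in bone marrow. Neutrophil markers, like Xbp1, were lower with alisertib (7 of 12 called lower, summed level 15189.7 CPM with alisertib, 34747 in control and 107833 in bone marrow). The part of either list in the Xbp1 ratio was not tested.

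The sensors upstream of Xbp1 and the chaperones did not move with it. Ern1, which encodes IRE1alpha, had 1299 counts in alisertib MDSCs, 999 in control MDSCs and 713 in bone marrow neutrophils, with an alisertib to control ratio of 1.22 (1.13 to 1.33). Its ratios to bone marrow, 2.02 (1.85 to 2.22) with alisertib and 1.65 (1.5 to 1.82) in control, were not called. Atf6 had 1336, 1360 and 673 counts in the same order and was called higher than bone marrow in both tumour libraries, 2.21-fold (2.01 to 2.42) with alisertib, just inside the rule, and 2.39-fold (2.17 to 2.62) in control.

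Hspa5 encodes BiP, the ER chaperone of the HSP70 family that holds the sensors inactive until unfolded proteins draw it away (ENSMUSG00000026864, chromosome 2, 34771970 to 34777547, plus strand). It had 41352 counts in alisertib MDSCs, 35559 in control MDSCs and 6480 in bone marrow neutrophils. Both tumour libraries were called higher than bone marrow, 7.09-fold (6.91 to 7.28) with alisertib and 6.48-fold (6.31 to 6.66) in control. The alisertib to control ratio was 1.09 (1.08 to 1.11). In FPKM, the unit that allows a comparison between genes, Hspa5 was the highest of the 36 in both tumour libraries at 457 and 419, whereas in bone marrow Atf4 (165) and Dnajb9 (88.0) stood above it (65.7).

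Of the other HSP70 and HSP90 chaperones and their partners, 4 were called higher than bone marrow with alisertib and 2 in control. With Hspa5 included, 55.6% and 33.3% of the 9 genes were called higher, where 18.7% and 18.3% of all genes were. Manf, a secreted ER protein released under stress, had 1065 counts in alisertib MDSCs, 959 in control MDSCs and 278 in bone marrow neutrophils, 4.25-fold (3.73 to 4.88) and 4.07-fold (3.56 to 4.67) above bone marrow. Dnajb9, a BiP cochaperone that acts on IRE1, had 9611, 9644 and 3827 counts, 2.79-fold and 2.98-fold above bone marrow. Hyou1, an HSP110-type exchange factor of BiP, and Creld2, a stress-induced ER protein, were called with alisertib only by a narrow margin. Hyou1 was 2.32-fold (2.13 to 2.52) above bone marrow with alisertib and 2.18-fold in control, and Creld2 was 2.41-fold (2.07 to 2.81) and 2.32-fold (1.99 to 2.71). The alisertib to control ratios of these genes, 1.07 and 1.04, show how near the libraries were. Hsp90b1, which encodes GRP94, stood at 148, 138 and 91.3 CPM in alisertib, control and bone marrow, and was not called. Dnajb11 (50.8, 42.5 and 45.9 CPM), Dnajc3 (37.8, 31.3 and 43.8 CPM) and Sdf2l1 (5.97, 5.43 and 5.64 CPM) are cochaperones that work with BiP, and their libraries lay within 1.5-fold of each other. Members of this group thus differed from each other in their ratios to bone marrow.

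The lectin chaperones, which hold glycoproteins during folding, and the disulfide isomerases had 3 of 5 genes called higher than bone marrow with alisertib and 2 of 5 in control. These were 60.0% and 40.0% of the group, where 18.7% and 18.3% of all genes were called higher. Calr, calreticulin, had 5900 counts in alisertib MDSCs, 4449 in control MDSCs and 2516 in bone marrow neutrophils, 2.61-fold (2.49 to 2.73) above bone marrow with alisertib, which was called, and 2.09-fold (1.99 to 2.19) in control, which was just outside the rule. Canx, calnexin, had 3994, 3113 and 1653 counts and was called in both, 2.68-fold (2.54 to 2.85) and 2.22-fold (2.09 to 2.36). Pdia6, an isomerase that also binds IRE1 and PERK, had 2008, 1613 and 640 counts and was called in both, 3.48-fold (3.19 to 3.82) and 2.98-fold (2.71 to 3.27). Pdia3 (150.2, 133 and 123 CPM) and Pdia4 (12, 12 and 8.37 CPM) were not called. All 5 genes of this group had an alisertib to control ratio at or above 1 (4 of 5 with DESeq2 size factors), from a log2 ratio of 0.00 to 0.32, a range comparable to the 0.27 by which the choice of library scaling moves that comparison.

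The genes of ER-associated degradation, which returns misfolded proteins to the cytosol for the proteasome, were not called in any comparison. Herpud1, a scaffold of the degradation complex, stood at 90.4 CPM in alisertib MDSCs, 130.0 in control MDSCs and 88.0 in bone marrow neutrophils. Sel1l, the partner of the ubiquitin ligase, stood at 92.2, 137 and 96.5 CPM, so in both genes the control library was the high one and alisertib lay within 1.1-fold of bone marrow. Control over bone marrow was 1.48 (1.39 to 1.57) for Herpud1 and 1.42 (1.35 to 1.51) for Sel1l. Their alisertib to control ratios were 0.696 (0.655 to 0.739) and 0.671 (0.632 to 0.712). The ligase Syvn1 (57.6, 49.1 and 65.3 CPM) and Edem1, which picks out mannose-trimmed glycoproteins (277, 291 and 255 CPM), had ratios of 1.17 and 0.952.

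**Figure D3:**
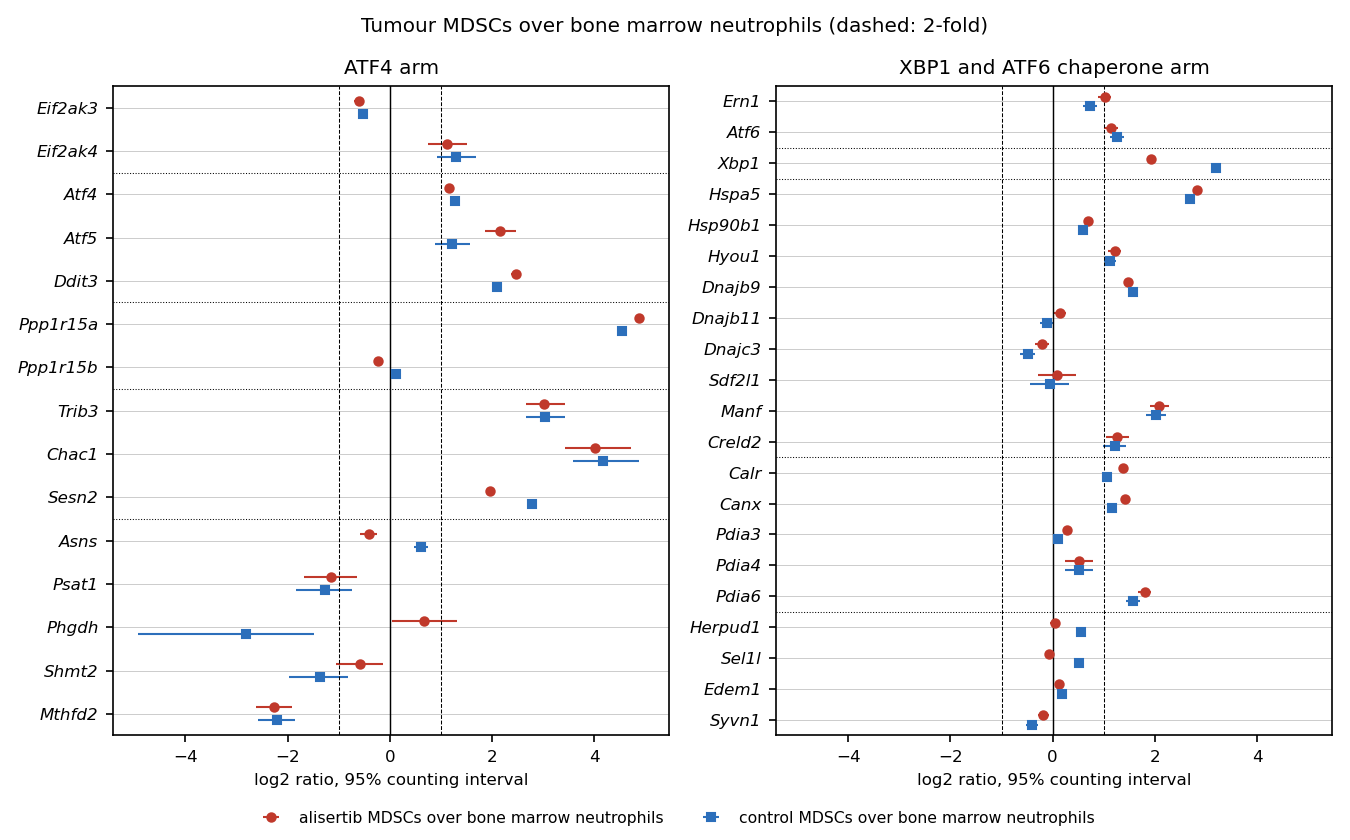
log2 ratio of alisertib MDSCs (circles) and of control MDSCs (squares) over bone marrow neutrophils for each gene, with 95% exact counting intervals and dashed lines at 2-fold. Ppp1r15a (4.88 and 4.54), Chac1 and Trib3 stood far to the right in the ATF4 arm while Mthfd2 (-2.26 and -2.21) stood to the left, and the 4 degradation genes lay within the 2-fold lines.

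Set against each other, the arms differed in spread, and the difference of their medians depended on the settings. Over bone marrow, the median log2 ratio with alisertib was 1.12 for the 15 ATF4-arm genes and 1.02 for the 21 chaperone-arm genes, and in control it was 1.22 and 0.73. The medians over all 13019 genes were -0.09 and -0.14. The arm difference was thus 0.11 with alisertib and 0.49 in control, and with alisertib it was 0.88 with a filter of 10 CPM and 1.26 with induced targets only. In control it was -0.039 when means were used in place of medians and -0.025 with FPKM plus 1 in place of counts. The SD of log2 ratios among members, which measures how unlike the genes of an arm were and not replicate error, was 2.01 in the ATF4 arm and 0.86 in the chaperone arm with alisertib, and 2.23 and 0.96 in control. In the ATF4 arm 7 genes were called higher and 1 lower with alisertib (46.7% and 6.67%), and 6 and 2 in control (40.0% and 13.3%). In the chaperone arm 10 were called higher with alisertib (47.6%), 7 in control (33.3%), and 0 lower in either. Of all genes, 18.7% were called higher and 22.3% lower with alisertib, and 18.3% and 22.9% in control. With alisertib 3 ATF4-arm genes lay above the highest chaperone-arm gene and 6 below the lowest, and in control 2 and 5. No test of the difference between the arms was made, since genes of an arm are not replicates.

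Between alisertib and control MDSCs, the median log2 ratio was -0.05 in the ATF4 arm and 0.11 in the chaperone arm, or 0.22 and 0.37 with total counts. The median over all genes was 0.00, or 0.27 with total counts. Ratios above 1 were found in 6 of 15 ATF4-arm genes and 15 of 21 chaperone-arm genes, against 6520 of all 13019 genes, and with total counts in 12 of 15 and 18 of 21. Under the same change of scaling, the share of higher genes among all genes called was 60.3% with TMM and 83.6% with total counts. The difference between the arm medians, -0.16, does not depend on scaling, but it was 0.22 with means, where Phgdh weighs most. With induced targets only, the median was 0.11 in the ATF4 arm and 0.11 in the chaperone arm, so the arms hardly differed. Among genes with at least 100 CPM in a library, the median log2 ratio was -0.23 and that of the 15 members at this level was -0.07, from -1.26 for Xbp1 to 0.37 for Ddit3, with 7 above 0 and 8 below.

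**Figure D4:**
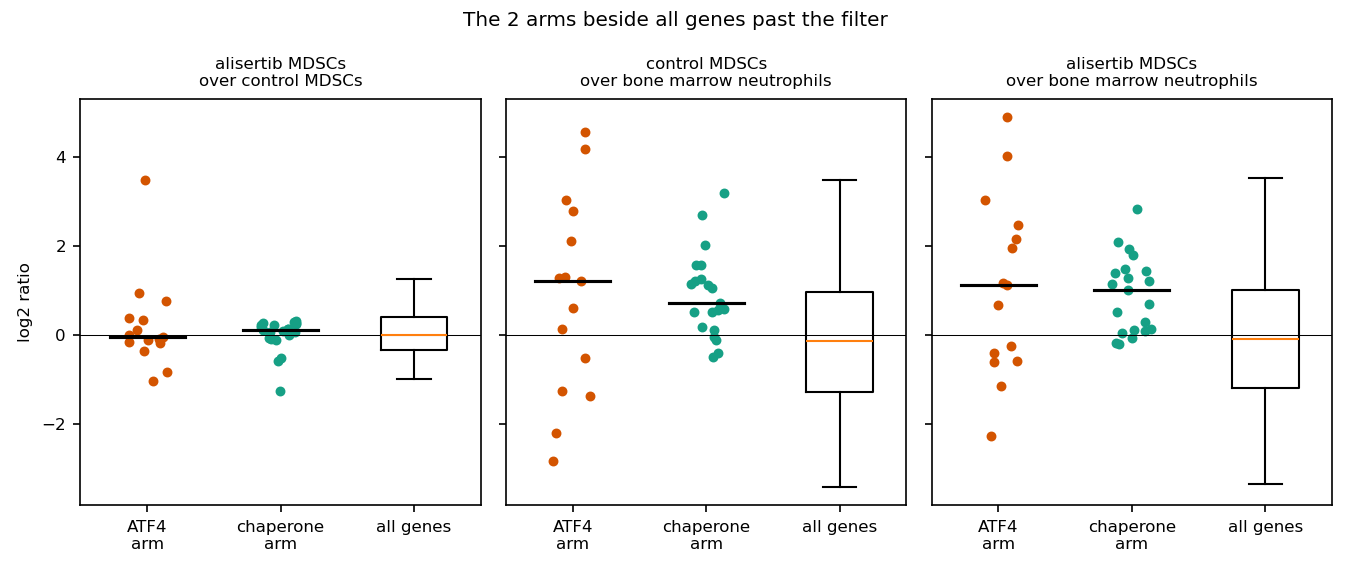
log2 ratios of the 15 ATF4-arm and 21 chaperone-arm genes (points, with the arm median as a bar) beside all 13019 genes past the filter (box at the quartiles, whiskers at the 5th and 95th percentiles) in the 3 comparisons. The ATF4 arm reached further in both directions than the chaperone arm over bone marrow, and both arm medians were close to 0 between alisertib and control under TMM scaling (0.22 and 0.37 with total counts).

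Ratios between members within a library gave a view free of scaling. For each 100 counts summed over the 14 chaperones and isomerases there were 8.08 Xbp1 counts (7.87 to 8.29) with alisertib, 21.1 (20.7 to 21.5) in control and 7.38 (7.02 to 7.74) in bone marrow. For each 100 Hspa5 counts alone there were 14.6 Xbp1 counts (14.2 to 15) with alisertib, 38.3 (37.5 to 39.0) in control and 27.1 (25.7 to 28.6) in bone marrow. Control was the highest library on both measures, while the place of alisertib relative to bone marrow depended on the genes set below Xbp1. For each 100 Atf4 counts there were 42.0 Ddit3 counts (40.7 to 43.4) with alisertib, 30.1 (29.0 to 31.2) in control and 16.9 (15.9 to 18.1) in bone marrow. For each 100 Hspa5 counts there were 13.5 Ddit3 counts (13.2 to 13.9) with alisertib, 11.4 (11.1 to 11.8) in control and 17.3 (16.2 to 18.4) in bone marrow, so bone marrow was the lowest library against Atf4 and the highest against Hspa5. The counts of Atf4 per 100 of Hspa5 were 32.2 with alisertib, 38.0 in control and 102 in bone marrow, since Hspa5 had the larger ratio to bone marrow. Summed over whole arms, there were 67.6 ATF4-arm counts per 100 chaperone-arm counts with alisertib, 66.9 in control and 60.1 in bone marrow. Single abundant genes weigh on these sums. Ppp1r15a gave 27295 of 63560 ATF4-arm counts with alisertib, 20302 of 61744 in control and 1028 of 23198 in bone marrow. Hspa5 gave 41352 of 93995, 35559 of 92245 and 6480 of 38600 chaperone-arm counts in the same order.

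**Figure D5:**
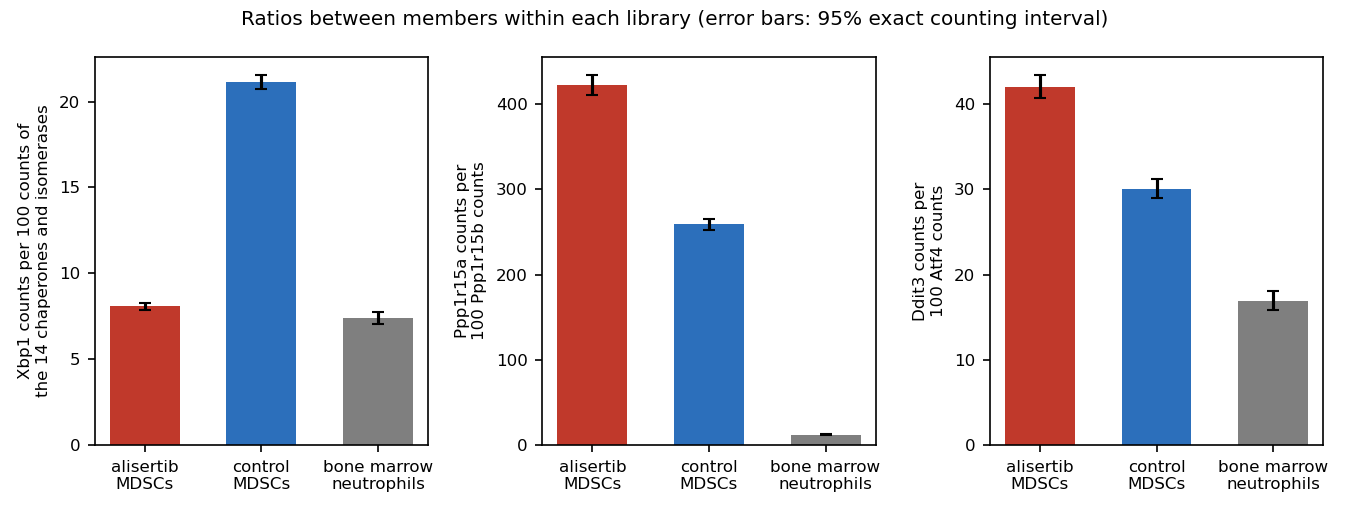
Counts of Xbp1 per 100 counts of the 14 chaperones and isomerases, of Ppp1r15a per 100 of Ppp1r15b and of Ddit3 per 100 of Atf4, in alisertib MDSCs, control MDSCs and bone marrow neutrophils, with 95% exact counting intervals. Xbp1 was highest in control (21.1), and both other ratios were highest with alisertib (422 and 42.0) and lowest in bone marrow. Against Hspa5, Ddit3 was highest in bone marrow (17.3 per 100).

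The chaperone-arm genes with the ER stress element in the searched window can be set beside those without it. For the 8 with it, the median log2 ratio to bone marrow was 1.33 with alisertib and 1.11 in control, and for the 10 matched genes without it 0.22 and 0.51. Ranges overlapped widely: -0.21 to 2.83 with alisertib for genes with the element, from Dnajc3 to Hspa5, and -0.07 to 1.93 without it, from Sel1l to Xbp1. Between alisertib and control the medians were 0.23 with the element and -0.03 without it, and total counts add 0.27 to both.

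Genes of the same pathways outside the 36 gave the wider picture. Of 20 other ATF4 targets, 16 passed the filter, and 8 were called higher than bone marrow with alisertib and 7 in control, with 0 lower. Slc7a11, the cystine importer, stood at 2834 CPM with alisertib, 2219.7 in control and 78.8 in bone marrow, 35.9-fold and 28.2-fold above bone marrow. Its partner chain Slc3a2 was 12.5-fold and 10.1-fold higher, and the stress transcription factor gene Atf3 8.67-fold and 12.7-fold. Slc38a2, a glutamine carrier, was called with alisertib (2.35-fold) and not in control (1.49-fold). None of the 16 was called between alisertib and control, against 1 with total counts. The 4 enzyme genes Gpt2, Aldh18a1, Pycr1 and Mthfd1l, named after their values were seen, were not called and lay 1.71-fold to 2.82-fold above bone marrow with alisertib and 1.68-fold to 2.49-fold in control. With alisertib, in control and in bone marrow, counts were low for Gpt2 (54, 41 and 21), Pycr1 (54, 50 and 35) and Aldh18a1 (65, 66 and 31). Cth, another enzyme gene of the list, fell below the filter with 2, 0 and 6 counts, highest in bone marrow.

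Aminoacyl-tRNA synthetases, which charge tRNAs and of which many are ATF4 targets, were mixed. Of 12, 3 were called higher than bone marrow and 1 lower with alisertib, and 4 higher and 2 lower in control. Aars was 6.65-fold higher with alisertib and 5.16-fold in control, Sars 2.54-fold and 3.10-fold, and Cars 2.27-fold and 3.41-fold. Lars, named after its values were seen, was called lower in both, 5.74-fold with alisertib and 7.5-fold in control. Nars was not called with alisertib (1.95-fold) and was called in control (2.20-fold), a difference that was not tested. Between alisertib and control 1 of 12 was called higher (8.33%, against 1.8% of all genes), Iars at 4.62 against 1.43 CPM. Of 12 genes of eIF2, its exchange factor eIF2B and other regulators of eIF2alpha kinases, 1 was called higher and 2 lower than bone marrow with alisertib, and 1 and 1 in control. These were 8.33% and 16.7% of the list with alisertib and 8.33% and 8.33% in control, below the shares of all genes. Impact, an inhibitor of GCN2 activation, was 5.37-fold and 7.19-fold higher, and Gcn1l1, the activator of GCN2, was 2.56-fold and 3.03-fold lower. Eif2b5, the catalytic subunit of eIF2B, was called lower with alisertib (2.52-fold) but not in control (2.27-fold), and Eif2s2, the beta subunit of eIF2, in neither.

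The rest of the ER folding machinery was mostly not called. Of 14 genes of translocation and signal peptide cleavage, 1 was called higher with alisertib than in bone marrow (7.14%), and 2 higher and 1 lower in control (14.3% and 7.14%). Sec61g, a subunit of the translocon, was 2.61-fold and 3.09-fold higher. Ssr3, of the complex beside the translocon, was 1.85-fold and 2.63-fold higher and Spcs3, a signal peptidase subunit, 2.25-fold and 2.55-fold lower, in each case called in control only. Sec61a1, the channel itself, was called in neither. Of 15 other folding and glycosylation genes, 14 passed the filter, and 3 were called higher and 1 lower than bone marrow in each tumour library (21.4% and 7.14%). The share called higher was near that of all genes (18.7% with alisertib and 18.3% in control), so it is read as a result on those genes. P4hb, the disulfide isomerase PDI, stood at 2152 CPM with alisertib, 2837 in control and 111 in bone marrow, 19.3-fold and 25.4-fold higher, more than any chaperone-arm member. Hspa13 was 2.67-fold and 4.30-fold higher, and Uggt1, the glucosyltransferase that senses misfolded glycoproteins, 2.31-fold and 2.53-fold lower. Ero1l, the oxidase that recharges PDI, was 3.68-fold and 8.69-fold above bone marrow and 2.36-fold lower with alisertib than in control, a pattern close in size to that of Xbp1, and it too was not called with total counts.

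Of 12 other degradation genes, 11 passed the filter, and 2 were called higher and 1 lower than bone marrow with alisertib, and 3 and 1 in control. These were 18.2% and 9.09% with alisertib and 27.3% and 9.09% in control, where 18.7% and 18.3% of all genes were called higher. Selenos and Selenok, ER membrane selenoproteins of the export complex, were 2.91-fold and 2.97-fold higher and 2.10-fold and 2.64-fold higher. Derl1, a derlin of the same complex, was not called with alisertib (2.08-fold) and was called in control (2.37-fold). Of 10 other stress regulators, 8 passed the filter, and 1 was called higher and 2 lower than bone marrow in each tumour library. Of all genes, 18.7% were called higher and 22.3% lower with alisertib, and 18.3% and 22.9% in control. With 8 genes, counts of 1 and 2 are near what these shares give, so they are read as results on those genes. Bbc3, which encodes the death-promoting protein PUMA, was 3.07-fold and 3.14-fold higher. Creb3l2, a relative of ATF6, was 3.93-fold and 3.90-fold lower, and Mbtps2, the site-2 protease that frees ATF6, 2.79-fold lower in both. Tmbim6, an ER membrane inhibitor of cell death, was not called.

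Other marker lists give the setting of the bone marrow comparisons. Neutrophil markers were called lower than bone marrow for 10 of 12 genes with alisertib and 8 of 12 in control, and primary granule markers of promyelocytes for 5 of 5 in both, with summed levels of 7.03, 5.73 and 136 CPM in alisertib, control and bone marrow. Ly6g, a defining surface marker of mouse neutrophils, stood at 60.0 CPM with alisertib, 82.2 in control and 1099.8 in bone marrow. Monocyte and macrophage markers were called higher for 6 of 8 genes with alisertib and 5 of 8 in control, with summed levels of 772, 635 and 305 CPM. Erythroid markers summed to 4.91, 6.19 and 71.0 CPM, and 3 epithelial markers to 17.6, 16.3 and 5.68 CPM. Of these 3 epithelial markers 2 were called higher than bone marrow in both tumour libraries. Their median log2 ratio was 5.06 with alisertib and 4.84 in control. Read in FPKM alone, Krt8 stood at 6.64, 5.17 and 0.0238 and Krt14 at 0.0266, 0.539 and 0 in the same order of libraries. B and plasma cell markers were called lower than bone marrow for 8 of 9 genes and higher for 1 (Sdc1) in both tumour libraries, with 215 CPM summed in bone marrow. Eosinophil, basophil and mast cell markers were called lower for 5 of 6 and higher for 1 in both, with summed levels of 55.0, 40.8 and 151 CPM. The 2 endothelial markers past the filter were called higher in both, and the 4 endothelial markers summed to 52.9, 50.1 and 10.7 CPM. The 5 fibroblast markers were read in FPKM alone and were at most 0.191 FPKM in every library. The part of these cell types in the ratios of the 36 genes to bone marrow was not tested.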

How the data were processed

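The authors deposited raw counts per gene and FPKM values for 3 libraries, 1 per group. Per the submitters' processing notes, the tools were CASAVA 1.8 and STAR 2.5.1b and the builds mm9 and mm10, with no roles stated. How reads were counted, on which annotation and with what strand setting, is not given in the sources used here. Gene symbols and GRCm38 positions came from GENCODE, and promoter sequences from RefSeq (GRCm38.p6).

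All ratios used the counts. TMM factors, from edgeR 4.0.16 under R 4.3.3, were 1.07148 (alisertib), 0.88952 (control) and 1.0492 (bone marrow) and multiplied the library sizes. Genes with at least 1 CPM in at least 1 library were kept (13019 of 19723), 0.5 was added to each count, and a call needed a 95% exact interval at least 2-fold from 1. No test of edgeR or DESeq2 1.42.0 was run, since 1 library per group leaves no residual degrees of freedom. The deposited FPKM values served for levels between genes and as an alternative. Calls were made gene by gene for all genes past the filter. The call rule was also run on simulated Poisson counts. Those hold counting error only, so they cannot show how the rule fares with variation between mice or libraries.

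The members and lists were chosen with earlier results of these data known. Named were all 36 members and, of each list of other pathway genes, up to 4, taking called genes before uncalled ones and ranking the remainder by abundance. A gene that met this rule is not reported here. Promoters printed were up to 6, members called in the most comparisons before others. Alternatives were total counts and DESeq2 size factors, no filter or one of 10 CPM, bounds of 1.5-fold and 3-fold, FPKM with 0.1 or 1 added, means for medians, and induced targets only.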

Additional observations from a re-analysis of the deposited data

How the results depend on the processing

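A member called under TMM could not turn its direction with total counts, DESeq2 size factors, either filter or either bound. Filters and bounds leave its ratio as it is. The other scalings move log2 ratios by at most 0.27, less than the 2-fold that a call needs. With total counts Xbp1 (alisertib over control) and Atf4, Atf6 and Canx (control over bone marrow) were no longer called and Shmt2 was called lower in control than in bone marrow, and with DESeq2 size factors Eif2ak4, Hyou1, Creld2 and Calr were called higher in control than in bone marrow. The cause was not tested.

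Between alisertib and control, members called higher numbered 1, against 0 with a filter of 10 CPM (which leaves out Phgdh) and 2 at a 1.5-fold bound. Members called lower numbered 1, against 0 with total counts, 3 at 1.5-fold and 0 at 3-fold. The ATF4-arm median of -0.05 became 0.22 with total counts, 0.22 as a mean and 0.11 with induced targets only. The chaperone-arm median of 0.11 became 0.37 with total counts and stayed at 0.11 with induced targets only. The arm difference of -0.16 became 0.22 with means, and nearly vanished with induced targets only.

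In control over bone marrow, 13 called higher became 8 at 3-fold, and 2 called lower became 1 with the 10 CPM filter, 4 at 1.5-fold and 1 at 3-fold. With total counts, 5 ATF4-arm and 5 chaperone-arm members were called higher. With DESeq2 size factors they numbered 7 and 10, the same as in alisertib over bone marrow. In this and the other comparisons, smaller changes of count are not all listed. The ATF4-arm median of 1.22 became 0.56 with FPKM plus 1 and 0.87 as a mean. The chaperone-arm median of 0.73 became 0.49 with total counts, 0.89 with the 10 CPM filter, 0.58 with FPKM plus 1 and 0.91 as a mean. The arm difference of 0.49 turned to -0.025 with FPKM plus 1 and to -0.039 with means.

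In alisertib over bone marrow, 17 called higher became 10 at 3-fold and 1 called lower became 2 at 1.5-fold. The ATF4-arm median of 1.12 became 1.96 with the 10 CPM filter, 0.46 with FPKM plus 1 and 1.96 with induced targets only. The chaperone-arm median of 1.02 became 0.83 with FPKM plus 1 and 0.70 with induced targets only, and the arm difference of 0.11 became 0.88 with the 10 CPM filter and 1.26 with induced targets only.

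No paired analysis was possible because each group had 1 library, and leaving out a library would remove its group. Counts were lowest for Phgdh, Psat1, Shmt2 and Mthfd2, with 4 to 80 in the tumour libraries, and every comparison describes single libraries.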
